A study of Mus musculus with 2 samples.

Results

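The Mir344 family is a set of microRNA genes known from rodents and from brain. Its members were chosen by symbol alone, as every annotated microRNA gene whose GENCODE M21 symbol starts with Mir344. This gave 13 loci, beside 2189 other annotated microRNA loci. They were measured in left cerebral cortex, taken at 14 days of age from female B6CASTF1/J mice (F1 animals from a cross between C57BL/6J and CAST). The labels give 1 group of 2 biological replicates, with no treatment, no engineered allele and no second tissue. Several females are mentioned in the description of replicate 1 and a single female in that of replicate 2, and both cite the same donor record. The labels do not say whether animals were pooled, so the spread between the libraries may be in part technical.

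A microRNA gene is transcribed into a hairpin, from which Drosha and Dicer cut a short duplex. The strand that enters an Argonaute protein, from the 5′ arm (5p) or the 3′ arm (3p) of the hairpin, recognises messenger RNAs mainly by its seed, bases 2 to 8. Loci that differ outside the seed can therefore share targets, while a change within the seed alters which messages are paired. The Mir344 loci lie beside Ndn, Magel2, Mkrn3 and Peg12, which are known as imprinted genes expressed from the paternal chromosome. The deposited counts are not split by parental allele.

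RefSeq (build GRCm38.p6) gave hairpins and mature sequences for all 13 members, at the same hairpin coordinates as GENCODE in 13 of 13. The 25 mature entries have 19 names and 18 distinct sequences, since miR-344e-5p and miR-344h-5p are identical. The sequences of the 4 members with reads in both libraries come first, because each of them was found in no other annotated microRNA hairpin. They are RNA, written 5′ to 3′, and the capitals mark the seed.
miR-344b-3p: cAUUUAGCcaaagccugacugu
miR-344b-5p: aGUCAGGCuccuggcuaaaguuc
miR-344g-3p: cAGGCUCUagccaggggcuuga
miR-344g-5p: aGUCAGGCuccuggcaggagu
miR-344f-3p: cUCUAGCCaggaccugacuac
miR-344f-5p: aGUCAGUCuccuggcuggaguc
miR-344c-3p: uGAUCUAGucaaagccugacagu
miR-344c-5p: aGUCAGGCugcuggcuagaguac

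The next set shows mature sequences that stand whole in at least 1 other annotated hairpin, so that reads of exactly these bases match several loci. miR-344-3p and miR-344-5p each lie in Mir344 and Mir344-2. miR-344d-3p lies in Mir344d-1, Mir344d-2 and Mir344d-3 and also in Gm23490 and Gm23962, microRNA loci that carry only a Gm symbol. miR-344h-3p lies in Mir344h-1 and Mir344h-2. The shared 5p sequence of miR-344e and miR-344h lies in Mir344e and both Mir344h loci. miR-344i lies in Mir344i and in Gm24923.
miR-344-3p: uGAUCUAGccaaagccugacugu
miR-344-5p: aGUCAGGCuccuggcuagauuccagg
miR-344d-3p: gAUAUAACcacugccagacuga
miR-344h-3p: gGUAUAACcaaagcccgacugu
miR-344h-5p: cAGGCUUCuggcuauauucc
miR-344i: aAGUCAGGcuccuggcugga

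The 18 sequences fall into 11 seeds. The seed GUCAGGC of the 5p arm was shared most widely, by 6 named mature sequences from 7 loci (Mir344, Mir344-2, Mir344b, Mir344c, Mir344d-1, Mir344d-3 and Mir344g). Of 1679 mouse mature names in the RefSeq table, none outside the family carried it. The 3p arms were more varied: Mir344, Mir344-2 and Mir344c shared GAUCUAG, the Mir344d loci and Mir344e shared AUAUAAC, and Mir344b, Mir344f and Mir344g each had a seed that no other member had. AUAUAAC is also the seed of miR-410-3p, a microRNA of the imprinted Dlk1-Dio3 region, and AGGCUCU of miR-344g-3p is also that of miR-7070-3p. These relatives were picked by sequence. They are shown here beside the family sequences with the same seed.
miR-344d-3p: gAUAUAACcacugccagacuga
miR-344e-3p: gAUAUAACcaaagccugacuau
miR-410-3p: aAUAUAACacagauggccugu
miR-344g-3p: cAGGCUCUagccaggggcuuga
miR-7070-3p: cAGGCUCUccuucccuccag

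All 13 members lie on the minus strand of chromosome 7 (mm10, 61683124 to 62085310), in an array that spans 402 kb. The gaps between neighbouring members run from 2.08 to 63.8 kb, with a median of 40.6 kb. Mir344i, at the end nearest to the imprinted genes, lies 261 kb from Ndn and 377 kb from Peg12. A further 7 microRNA loci, which carry only Gm symbols, lie in or at the edge of the same array: Gm25533, Gm23962, Gm23490, Gm22466, Gm23917, Gm23873 and Gm24923. No other annotated microRNA locus lies within 1 Mb of a member.

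Annotation on the same strand places 7 members in introns of A230057D06Rik, a long non-coding RNA: Mir344d-3, Mir344e, Mir344h-1, Mir344h-2, Mir344b, Mir344c and Mir344. Mir344-2 lies in an intron of A330076H08Rik, a non-coding processed transcript. Mir344g overlaps the first annotated bases of the same gene, with 70 of its 71 bases within the gene and at least some of them in an exon. Mir344d-1, Mir344d-2, Mir344f and Mir344i have no annotated host.

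The hairpins, of 60 to 95 bases, resembled each other by neighbourhood. Identical bases in a pairwise alignment, as a percentage of the shorter hairpin, had a median of 76.3% over the 78 pairs of members, with a range from 64.7% to 100%. Against the 2182 microRNA loci outside the array the median was 25.0%, with a 95th percentile of 63.3%. The value of a pair can depend on the order of alignment: Mir344d-2 against Mir344g gave 64.8%, and Mir344g against Mir344d-2 gave 63.4%. The range among members holds the former, and the latter lies close to that 95th percentile. The only identical pair was Mir344h-1 and Mir344h-2. Mir344 and Mir344-2 were 97.5% identical, Mir344f and Mir344g 89.7%, and Mir344b and its nearest relative Mir344 87.3%. Over the 91 pairs of a member and a locus with a Gm symbol, the median was 77.8%, with a range from 62.3% to 96.6%. The lowest of these values lies under the 95th percentile of loci outside the array. By nearest member, Gm24923 was 96.6% identical to Mir344i, Gm23962 94.2% to Mir344d-1 and Gm23490 93.8% to Mir344d-3. Gm23917 was 91.7% identical to the Mir344h loci, Gm22466 91.3% to Mir344d-3, Gm23873 87.1% to Mir344 and Gm25533 86.4% to Mir344e.

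**Figure D1:**
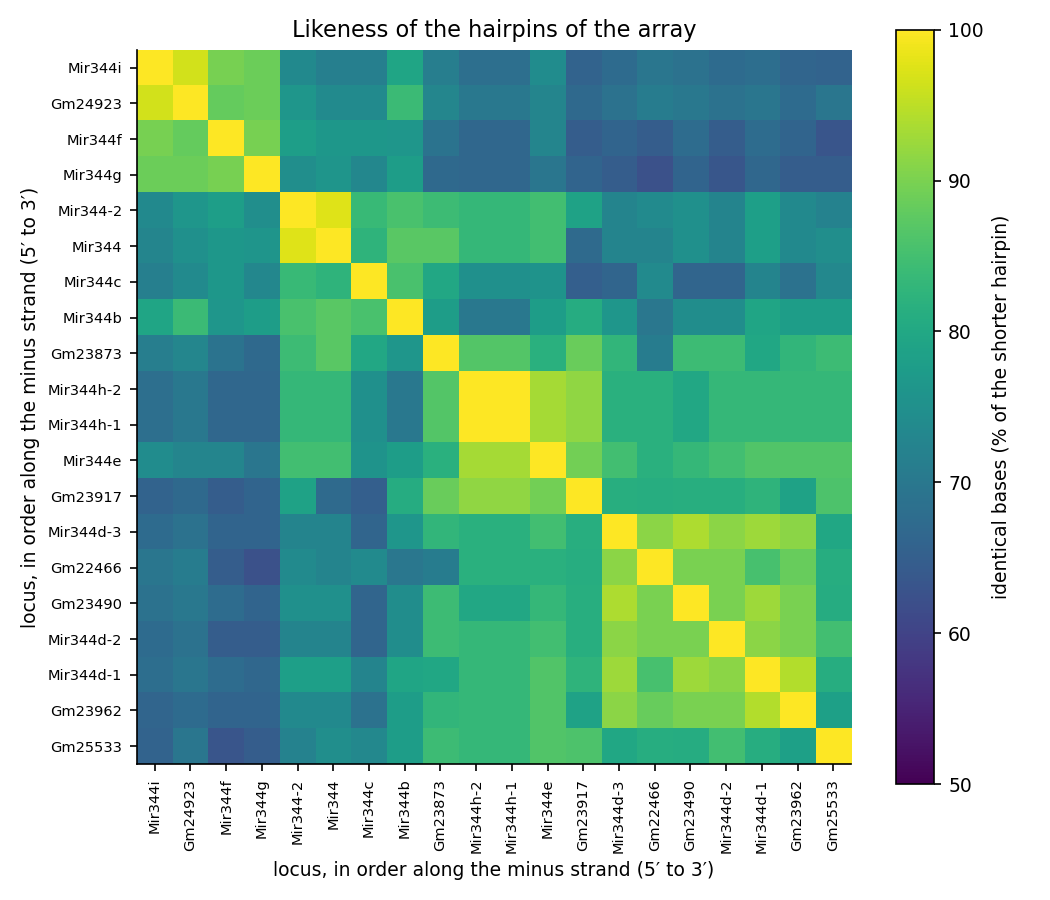
Identical bases in pairwise alignments of hairpins (colour, % of the shorter hairpin) between the 20 microRNA loci of the array, in order along the minus strand. Blocks of alike neighbours stand along the diagonal (each locus against itself is 100): Mir344i to Mir344g at the upper left, Mir344-2 to Mir344b, the Mir344h loci with Mir344e, and the Mir344d loci at the lower right.

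Reads under 30 nt were counted per hairpin, so the counts do not tell the 5p from the 3p arm. Each read stands for a whole short RNA, and levels were therefore compared without scaling by length, as reads per 1000000 reads assigned to microRNA genes (CPM). Replicate 2 held 3207941 such reads and replicate 1 held 2740332. A read was worth 0.312 CPM in replicate 2 and 0.365 CPM in replicate 1. Counts of 0 entered levels and means as 0. As a limit for such counts, a fixed floor of 3 reads was set, which is 0.935 CPM for replicate 2 and 1.09 CPM for replicate 1. The exact Poisson 95% interval at 0 reaches further, to 3.69 reads, which is 1.15 CPM for replicate 2 and 1.35 CPM for replicate 1. No molecular identifiers are stated, so these limits and all intervals describe counting error alone. Reads that mapped to several places made up 37.9% of replicate 2 and 40.6% of replicate 1, and they enter no gene's count.

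Few reads were assigned to the family, and they lay on few of its loci. The 13 loci together had 167 reads in replicate 2 and 81 in replicate 1. This was 0.00521% of assigned reads in replicate 2 (exact binomial 95% interval 0.00445% to 0.00606%) and 0.00296% in replicate 1 (0.00235% to 0.00367%), or 40.8 ± 15.9 CPM (SD, n = 2). The intervals of the libraries do not overlap. Of the 13 members 5 had a read in either library (38.5%), beside 34.2% of all annotated loci. At least 10 reads in each library, called detected from here on, were reached by 2 members (15.4%), beside 17.7% of all loci. Both shares of the family lie near those of all loci.

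Mir344b was the most-read member by its mean, with 95 reads in replicate 2 and 31 in replicate 1, or 20.5 ± 12.9 CPM (SD, n = 2). Mir344g followed with 36 reads in replicate 2 and 38 in replicate 1, or 12.5 ± 1.87 CPM. Mir344f had 32 reads in replicate 2 and 8 in replicate 1, or 6.45 ± 4.99 CPM, and so lay just under the minimum. Mir344c had 4 reads in replicate 2 and 2 in replicate 1, and Mir344d-1 had 0 in replicate 2 and 2 in replicate 1. The order of the leading members was not the same in the libraries. In replicate 2 the exact Poisson 95% interval of Mir344b (76.9 to 116 reads) lay above that of Mir344g (25.2 to 49.8) and that of Mir344f (21.9 to 45.2), while in replicate 1 the intervals of Mir344b (21.1 to 44.0) and Mir344g (26.9 to 52.2) overlapped.

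**Figure D2:**
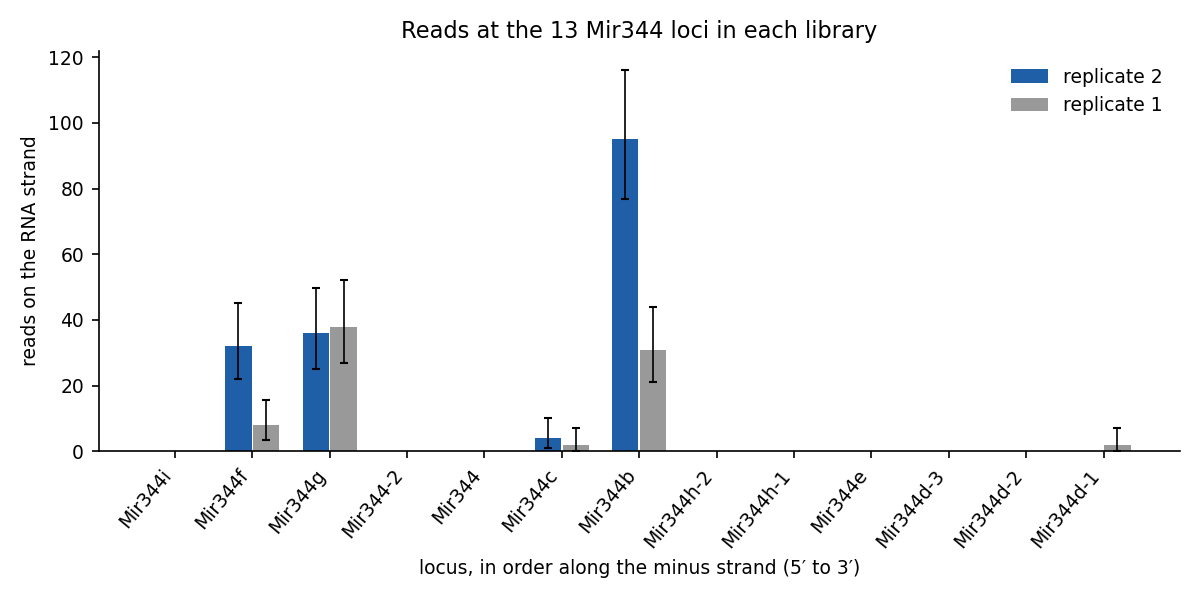
Reads on the RNA strand (y axis) at the 13 Mir344 loci in replicate 2 (blue) and replicate 1 (grey), in order along the minus strand. Bars are counts and lines are exact Poisson 95% intervals, drawn where the count is above 0. In replicates 2 and 1, Mir344b at 95 and 31 reads, Mir344g at 36 and 38 and Mir344f at 32 and 8 hold nearly all reads of the family.

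The remaining 8 members, Mir344, Mir344-2, Mir344d-2, Mir344d-3, Mir344e, Mir344h-1, Mir344h-2 and Mir344i, had 0 reads in both libraries. Mir344, which gave the family its name, and Mir344-2 are among them. Since their mature sequences are identical, these 0 counts do not show that miR-344 was absent from the cortex. No read was counted on the opposite strand of any member in either library, and the column without strand gave the same counts as the RNA strand for all 13.

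Reads were counted mainly at loci whose mature sequences are unique among the annotated hairpins. In Mir344b, Mir344c, Mir344f and Mir344g no annotated mature sequence stands in another microRNA locus, and 4 of these 4 had reads in both libraries, 167 of the 167 family reads in replicate 2 and 79 of the 81 in replicate 1. In Mir344, Mir344-2, Mir344h-1, Mir344h-2 and Mir344i every annotated mature sequence stands in another locus. Of these 5, 0 had a read in either library, beside 34.2% of all annotated loci. Reads that mapped to several places enter no gene's count, so reads of exactly these mature sequences could not be counted there. The 0 counts do not show the levels of these 5 members, and how far the counting made the contrast was not tested. Loci outside the family were not split in this way, so the contrast is not shown to be particular to the family. Mir344d-1, Mir344d-2, Mir344d-3 and Mir344e have a shared arm and an arm found nowhere else, and of these only Mir344d-1 had reads, 0 in replicate 2 and 2 in replicate 1. An exact match was searched among annotated microRNA hairpins only, and copies elsewhere in the genome were not searched. The deposited files do not give the loci of reads that mapped to several places, so how many came from the family was not tested.

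Some of the unique sequences differ little from their relatives, and others differ more. Over the length of the mature sequence, miR-344b-3p had at least 2 mismatches to any stretch of another locus, and the nearest were Mir344 and Mir344-2, with which it shares a run of 18 identical bases. miR-344c-3p had at least 2 mismatches and miR-344g-3p at least 4. At members with 0 reads, miR-344d-2-5p had at least 2, miR-344e-3p at least 3 and miR-344d-3-5p at least 4. miR-344g-5p and miR-344f-5p had 1 mismatch to Mir344i and to Gm24923. A read that falls within such a shared run matches several loci, and read lengths are not given in the files.

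Unevenness within the family also differed between the libraries. Mir344b held 56.9% of family reads in replicate 2 (exact binomial 95% interval 49.0% to 64.5%) and 38.3% in replicate 1 (27.7% to 49.7%). Mir344g held 21.6% in replicate 2 (15.6% to 28.6%) and 46.9% in replicate 1 (35.7% to 58.3%), with intervals that do not overlap. Mir344f held 19.2% in replicate 2 and 9.88% in replicate 1.

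Along the chromosome, the reads came from positions spread over the array. Counted downstream from Mir344i, the 5′-most member on the minus strand, Mir344f lies at 39.1 kb, Mir344g at 103 kb, Mir344c at 248 kb, Mir344b at 295 kb and Mir344d-1 at 402 kb. Members without reads stand between them: Mir344-2 at 145 kb and Mir344 at 207 kb lie between Mir344g and Mir344c. The 7 members within A230057D06Rik gave 99 reads in replicate 2 and 33 in replicate 1, nearly all of them from Mir344b. The 2 members of A330076H08Rik gave 36 reads in replicate 2 and 38 in replicate 1, all from Mir344g. The 4 members with no host gave 32 reads in replicate 2, all from Mir344f, and 10 in replicate 1.

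**Figure D3:**
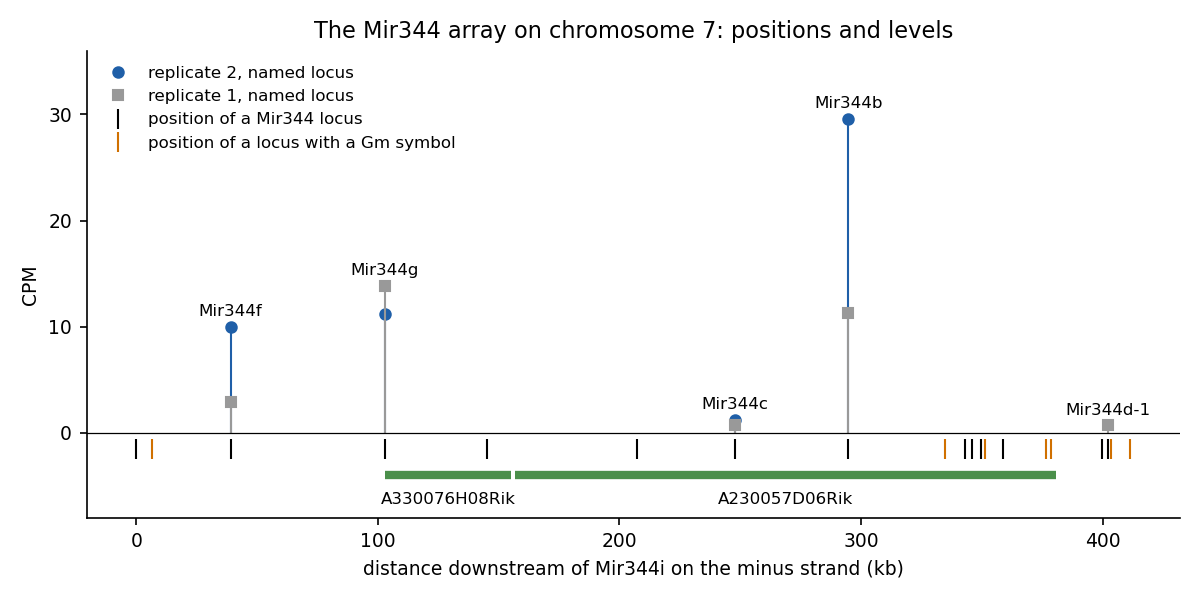
CPM (y axis) of the Mir344 loci with reads against distance downstream of Mir344i on the minus strand (x axis, kb), for replicate 2 (blue circles) and replicate 1 (grey squares). Ticks mark the 13 Mir344 loci (black) and 7 loci with Gm symbols (orange), and green bars mark the non-coding genes A330076H08Rik and A230057D06Rik. The 3 loci with the highest mean CPM, Mir344b, Mir344g and Mir344f, lie at 295, 103 and 39.1 kb. Mir344-2 and Mir344, both at 0, lie between Mir344g and Mir344b.

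The 7 loci with Gm symbols had hardly any reads, 12 in replicate 2 and 4 in replicate 1. Gm23873, 87.1% identical to Mir344, had 8 reads in replicate 2 and 2 in replicate 1. Gm24923, which holds the whole of miR-344i, had 2 reads in each library, while Mir344i itself had 0. Gm22466 had 2 reads in replicate 2 and 0 in replicate 1. None of the 7 reached the minimum for detection.

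Predicted folding energy and base composition varied widely over the hairpins. The minimum free energy ran from −56.8 kcal/mol for Mir344 to −25.6 kcal/mol for the Mir344h loci, and the 5 loci with reads lay between −43.5 (Mir344g) and −32.9 kcal/mol (Mir344d-1). GC content ran from 45.0% in Mir344d-2 to 62.0% in Mir344g. Hairpin lengths differ, which moves the energy as well.

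The members with reads stood low among detected loci. Mir344b ranked 288th by mean CPM among all annotated loci, Mir344g 313th, Mir344f 359th and Mir344c 554th. The 389 detected loci had a median of 149 CPM, and 287 of them lay above Mir344b. Mir410, whose 3p arm carries the seed of miR-344d-3p and miR-344e-3p, had 710 reads in replicate 2 and 358 in replicate 1, or 176 ± 64.1 CPM, and Mir7070, which shares a seed with miR-344g-3p, had 38 reads in replicate 2 and 27 in replicate 1 (10.8 ± 1.41 CPM). Among the 387 detected loci outside the family, the 3 nearest to Mir344b by Euclidean distance of log2(CPM + 1) over the 2 libraries were Mir1930 (distance 0.17; 87 reads in replicate 2 and 34 in replicate 1), Mir3068 (0.19; 89 in replicate 2 and 35 in replicate 1) and Mir8114 (0.39; 74 in replicate 2 and 27 in replicate 1). They lie on chromosomes 10, 12 and 1.

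**Figure D4:**
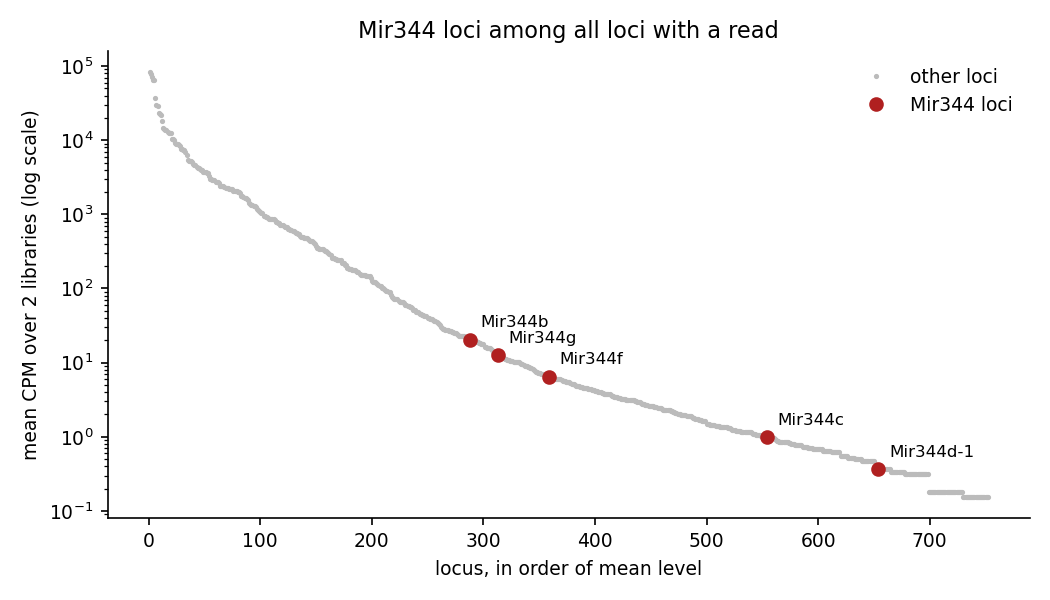
Mean CPM over the 2 libraries (y axis, log scale) of every microRNA locus with a read, in order of level (x axis). Red points are the 5 Mir344 loci with reads: Mir344b, Mir344g and Mir344f lie at 20.5, 12.5 and 6.45 CPM, Mir344c and Mir344d-1 under 1 CPM.

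A pair of larger microRNA clusters was set beside the family as a description, without a test. The rodent cluster known from an intron of Sfmbt2 was taken by the symbols Mir297, Mir466, Mir467 and Mir669. A run of 20 identical bases in another microRNA locus was found for 12 of 13 Mir344 loci (92.3%), for 79 of 81 Sfmbt2-type loci (97.5%), for 7 of 43 loci of the Mirg cluster between Mir379 and Mir410 (16.3%) and for 1084 loci in all (49.2% of those annotated). The detected share was 15.4% for the Mir344 family, 8.64% (7 of 81) for the Sfmbt2-type loci and 79.1% (34 of 43) for the Mirg cluster. Their shares of assigned reads were 0.00408 ± 0.00159% for the Mir344 family, 0.182 ± 0.00172% for the Sfmbt2-type loci, led by Mir467d at 880 ± 120 CPM, and 8.69 ± 0.564% for the Mirg cluster, led by Mir382. The only Mir344 locus without such a run was Mir344c, whose longest shared run was 19 bases.

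Between the libraries, reads of each detected locus were compared with an exact binomial test, two-sided, in which library sizes were scaled by TMM (trimmed mean of M values). Its p-values were adjusted by the Benjamini-Hochberg method for all 389 detected loci. The test covers counting error in these 2 libraries only. Mir344b was 2.32-fold higher in replicate 2 than in replicate 1 (log2 ratio 1.22, 95% interval 0.62 to 1.85, adjusted p = 4.62e-05, exact binomial test). Mir344g had a log2 ratio of −0.48 (−1.18 to 0.22) and did not pass (adjusted p = 0.223, exact binomial test). Thus 1 of 2 detected members passed, beside 58.4% of all detected loci (28.8% higher and 29.6% lower in replicate 2), so a member past this test is nothing particular to the family. The median log2 ratio was 0.37 for the 2 detected members, beside −0.0098 for all 389 detected loci. By absolute log2 ratio Mir344b was 30th of 389, and the SD of the log2 ratio was 0.68 over the 128 detected loci with a mean under 100 reads. With a minimum of 5 reads, Mir344f entered the test at a log2 ratio of 1.59 (adjusted p = 0.00788, exact binomial test), and 2 of 3 members passed, beside 51.2% of all loci at that minimum.

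**Figure D5:**
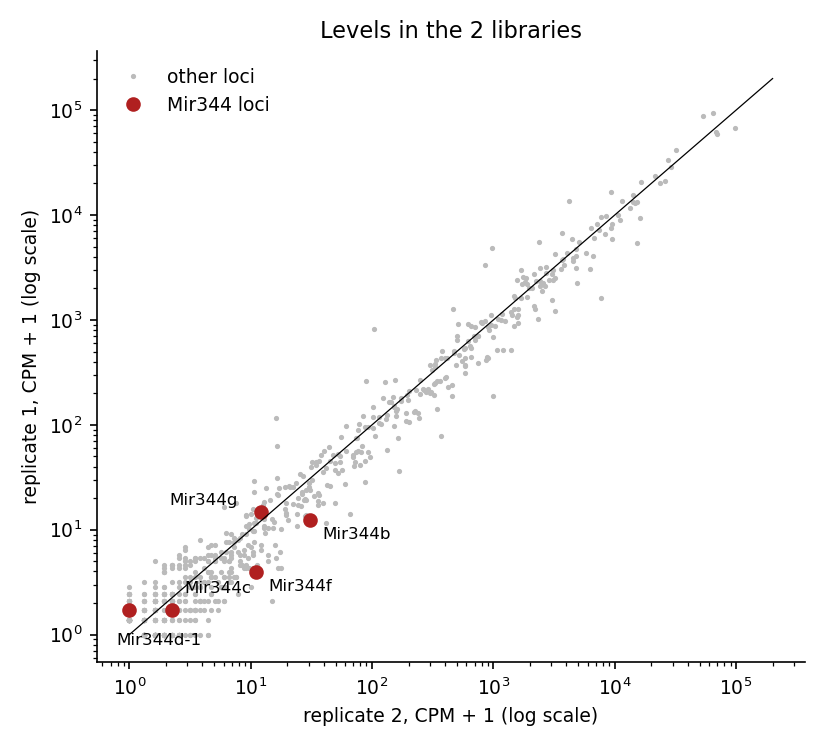
CPM + 1 of every locus with a read in replicate 2 (x axis) and replicate 1 (y axis), both on log scales, with the line of equal levels. Red points are the Mir344 loci: Mir344b (29.6 and 11.3 CPM in replicates 2 and 1) and Mir344f (9.98 and 2.92 CPM) lie below the line, Mir344g (11.2 and 13.9 CPM) lies slightly above it.

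Markers of cell types were read in the same libraries to check the tissue label. Of 12 neuron-enriched loci 8 were detected, with a summed level of 42518 CPM in replicate 2 and 33386 CPM in replicate 1. Mir124a-1, Mir124a-2, Mir124a-3 and Mir9-2 did not reach the minimum. The detected loci did not move together. The TMM-scaled log2 ratio was 1.32 for Mir128-1 and 0.97 for Mir128-2, but −1.07 for Mir138-1, −0.61 for Mir138-2 and −0.39 for Mir132. It was 0.37 for Mir9-1, 0.17 for Mir137 and 0.06 for Mir9-3. Oligodendrocyte loci (3 of 3 detected) summed to 1477 CPM in replicate 2, against 4275 CPM in replicate 1, endothelial Mir126a had 9390 CPM in replicate 2 and 16741 CPM in replicate 1, and erythroid loci (2 of 2) summed to 564 CPM in replicate 2, against 952 CPM in replicate 1, with Mir451a at 1637 reads in replicate 2 and 2489 in replicate 1 and Mir144 at 172 and 119 reads in the same order. Microglial and leukocyte loci (3 of 4) summed to 1233 CPM in replicate 2, against 691 CPM in replicate 1, with log2 ratios of 0.87 for Mir150, 0.25 for Mir142 and −0.72 for Mir155, and choroid plexus Mir204 had 893 CPM in replicate 2 and 445 CPM in replicate 1. Liver Mir122 had 43.0 CPM in replicate 2 and 60.9 CPM in replicate 1. Muscle loci (1 of 5, Mir206) summed to 31.2 CPM in replicate 2, against 28.8 CPM in replicate 1. Mir1a-1, Mir1a-2, Mir133a-1 and Mir133a-2 were at 0. Reads that mapped to several places enter no gene's count, and mature sequences shared between marker loci were not searched. Low or 0 counts at the Mir124a loci, Mir9-2 and the muscle loci therefore do not show that their RNA was absent. The libraries thus differed at single marker loci of several cell types, and the part of this in the ratios of Mir344b and Mir344f was not tested. In such tissue, fewer cells of a type and less RNA per cell cannot be told apart.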

How the data were processed

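MicroRNA sequencing libraries of RNA under 30 nt came from 2 biological replicates of 1 group. The authors deposited raw counts of reads for each microRNA gene, made on mm10 with GENCODE M21, per the records that came with the files. No source used here names the aligner or the counting tool. A file holds 3 unnamed count columns, read from their values as without strand, RNA strand and opposite strand. The RNA strand (column 3) was used. The 4 rows that name no gene held 66.7% of 9627908 reads in replicate 2 and 64.6% of 7745369 in replicate 1 and were left out of library sizes. Every identifier matched the annotation.

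CPM was computed from assigned reads. Detection needed 10 reads in each library. TMM came from edgeR 4.0.16 and size factors from DESeq2 1.42.0, in R 4.3.3. Exact tests used SciPy 1.17.1 and a threshold of 0.05. Hairpins were aligned with Biopython 1.88 (match 1, mismatch −1, gap opening −2, gap extension −1, end gaps free) and folded with ViennaRNA 2.7.2. With 1 group, edgeR's quasi-likelihood test has no contrast.

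Named loci were all members, microRNA loci within 1 Mb, host genes, the 3 detected loci nearest to the most-read member, and the most-read locus of each compared cluster; neighbouring imprinted genes were named by position and Mir410 and Mir7070 by seed. Members, lists and alternatives were chosen with earlier results of these data known. Alternatives were the column without strand, minima of 5 and 50 reads or none, DESeq2 size factors, library totals, all reads as denominator, each replicate left out, and, chosen after seeing the data, the 7 Gm loci added.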

Additional observations from a re-analysis of the deposited data

How the results depend on the processing

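Counts at the Mir344 loci are low, and the minimum decided how many were called detected: 2 of 13 with 10 reads (17.7% of all annotated loci), 3 with 5 reads (20.8% of all), 5 with no minimum (34.2% of all) and 0 with 50 reads (12.9% of all), at which no ratio or test for a member can be given. With 5 reads the median log2 ratio of detected members was 1.21, against 0.37 with 10 reads, since Mir344f entered, and 2 members differed between the libraries, beside 51.2% of all loci tested; with no minimum 2 differed as well, beside 31.9%. With all reads of the file as denominator the family's share was 0.00139%, lower because the denominator is larger. Leaving out a replicate gave shares of 0.00296% to 0.00521% and a rank of the most-read member from 269 to 303. That member held 46.9% to 56.9% of family reads and was Mir344g in replicate 1 alone. The column without strand, DESeq2 size factors and library totals kept 1 member past the test, Mir344b, beside 57.8%, 60.2% and 60.7% of all loci tested. Library totals gave 159 loci higher and 77 lower in replicate 2, against 112 and 115 with TMM, and moved the median log2 ratio of all detected loci to 0.16, so that Mir344g stood at −0.31 and Mir344b at 1.39. Adding the 7 Gm loci gave a share of 0.00434% and 2 detected loci of 20 (10%), beside 17.7% of all annotated loci. No paired analysis was possible because there is 1 group.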
